A study of Homo sapiens with 9 samples.

Results

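CCN proteins are secreted, cysteine-rich proteins of the extracellular matrix that bind integrins and proteoglycans at the cell surface and tune adhesion, growth and repair. CCN1 and CCN2 are among the best known targets of YAP1 and its relative WWTR1 (also called TAZ), coactivators that enter the nucleus, pair with TEAD transcription factors and switch on genes. The Hippo kinases hold YAP1 and WWTR1 back: LATS2 phosphorylates them so that they stay in the cytoplasm, and AMOTL2, a junction protein, binds and retains them. LATS2 and AMOTL2 are themselves YAP and TEAD targets, so they close a negative feedback loop. CCN1 and CCN2 also respond quickly to serum, calcium and mechanical signals.

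The expression of 10 genes was followed here: the 6 members of the CCN family (CCN1 to CCN6, formerly CYR61, CTGF, NOV, WISP1, WISP2 and WISP3) and 4 genes of the YAP pathway (YAP1, WWTR1, AMOTL2 and LATS2). They were taken by gene symbol, as a family and pathway named with earlier results of these data known, and all 10 were found, with 23 of the 41091 probe sets that carry a single gene symbol. Each gene is given by its brightest probe set, as was each of the 19775 genes on the array, and the other probe sets are described beside it. The cells were H295R, a human adrenocortical carcinoma line that secretes steroid hormones and here stands, as a single tumour line, for adrenal cortex. Cells were kept for 3 h in DMSO, the vehicle, or in angiotensin II or torcetrapib, each at 100 nM. The labels list torcetrapib as test compound CP-529414. Angiotensin II is the peptide hormone that drives aldosterone secretion, and torcetrapib inhibits the cholesteryl ester transfer protein. The study asked whether inhibitors of this kind switch on the renin-angiotensin-aldosterone axis in adrenal cells. Each group held 3 arrays. The labels do not tell whether these stem from different cultures, and p-values then rest on a spread between samples that may be technical.

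Values are log2 expression from robust multi-array averaging (RMA), so a difference of 1 is a 2-fold difference. The brightness of a probe set depends on its probes, so levels are compared between arrays and not between genes. The middle gene under DMSO lay at 6.72 and the dimmest quartile of genes below 4.87, which marks where small changes are hard to see. Across genes, r lay between 0.9964 and 0.9985 for arrays within a group and between 0.9933 and 0.9977 otherwise. RNA quality was followed by an index from the ACTB and GAPDH control probe sets, their 5′ log2 signal less their 3′ one. The index averaged -0.50 ± 0.22 over the DMSO arrays (SD, n = 3), -0.62 ± 0.02 over those with angiotensin II and -0.24 ± 0.03 over those with torcetrapib. Torcetrapib differed from either other group at p = 0.1 (exact permutation test, two-sided), the smallest p that 3 against 3 arrays allow, and angiotensin II from DMSO at p = 0.5. Of 10 adrenocortical markers 8 were measured, with 4 in the brightest quartile of genes and none in the dimmest. Of these 8 markers, 3 were called higher with angiotensin II, against 3.36% of all genes. With torcetrapib 0 were called (limma, 1 at an unadjusted p under 0.05), against 1.16% of all genes. Between the agents 4 of the 8 markers were lower with torcetrapib, against 6.68% of all genes. The summed linear signal of these markers ran from 15470 to 16200 with torcetrapib, 16230 to 17070 with DMSO and 18050 to 18960 with angiotensin II. This sum leans on its brightest gene, SCARB1, at 13.01, 13.12 and 13.29 on the log2 scale in the same order. Markers of fibroblasts, cells that make much CCN2, had 8 of 10 genes below the middle gene in every group and summed to between 815 and 905, and all 6 endothelial markers lay below the middle gene. Their summed signal was 206.8 to 226.6 with DMSO, 219.3 to 240.3 with angiotensin II and 197.5 to 211.4 with torcetrapib, and that of the 5 measured immune markers was 184 to 191.4, 190.8 to 207.2 and 194.7 to 219.4. None of the fibroblast, endothelial or immune markers passed the test against DMSO with either agent (limma, 3 at an unadjusted p under 0.05 with angiotensin II and 1 with torcetrapib). Of all genes 6.12% passed with angiotensin II and 1.16% with torcetrapib. Between the agents 1 fibroblast marker, COL3A1, was lower with torcetrapib, against 6.68% of all genes. All samples are of a single cell line, and in such bulk values fewer cells with a marker and less of its RNA per cell cannot be told apart.

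Promoters were searched for the letters GGAATG, which TEAD factors are known to bind, on either strand. RefSeq promoter windows, which run from 250 bases before to 50 bases after a transcription start on GRCh38.p14, were used for 6 members with 8 start sites. CCN1 and CCN5 had no entry, and the windows of CCN3 and CCN4 were not used. The CCN2 window held 3 matches, whose first bases lie 169, 104 and 95 bases before the start. At least 1 match is found in 4928 of the 35116 windows of all genes, and 3 or more in 45 of them, or 0.128%. Of the AMOTL2 start sites, the first has no match. The second has 1 match on the other strand, where it reads CATTCC, with its first base 69 bases before the start. The only match of LATS2 begins 10 bases after the start. The CCN2 and AMOTL2 sequences below cover the 250 bases before the start, at chr6:131951373-131951622 and chr3:134374448-134374697, and that of LATS2 the 30 bases around its match, at chr13:21061560-21061589. All are on the minus strand and printed 5′ to 3′, with the TEAD motif in capitals; they are shown because these 3 genes rose with angiotensin II, and AMOTL2 and LATS2 were added after their values were seen.
CCN2: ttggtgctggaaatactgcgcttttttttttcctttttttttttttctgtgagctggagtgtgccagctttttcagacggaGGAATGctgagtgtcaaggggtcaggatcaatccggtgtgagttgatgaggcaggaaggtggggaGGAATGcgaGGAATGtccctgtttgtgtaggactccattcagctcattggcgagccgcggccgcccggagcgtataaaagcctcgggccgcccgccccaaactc
AMOTL2: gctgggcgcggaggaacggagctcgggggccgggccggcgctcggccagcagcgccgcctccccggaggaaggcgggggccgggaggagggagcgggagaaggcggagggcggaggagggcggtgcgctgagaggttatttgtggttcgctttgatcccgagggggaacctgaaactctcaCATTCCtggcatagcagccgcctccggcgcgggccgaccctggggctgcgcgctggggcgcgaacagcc
LATS2: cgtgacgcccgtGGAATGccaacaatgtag

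The same letters occur in windows of members that did not pass the test in any comparison. CCN6 has 2 matches, with first bases 128 bases and 1 base before the start, YAP1 has 1, at 162 bases before the start, and neither WWTR1 window has any. Of other motifs searched on both strands, the full cAMP response element TGACGTCA, the AP-1 motif TGANTCA and the CArG box of serum response factor (SRF) occur in none of the 8 windows, against 1.85%, 7.71% and 1.29% of all windows. The short element TGACG, which the full one contains, occurs in 24.6% of all windows; LATS2 holds it at 23 bases and 1 base before the start, CCN6 at 124 and WWTR1 at 137. A match describes these letters only and is not a binding site.

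Angiotensin II against DMSO asks what the hormone itself does to these genes. CCN1, CCN2, LATS2 and AMOTL2 rose and CCN3 fell, so 5 of the 10 members passed the test (limma, Benjamini-Hochberg over all genes, threshold 0.05), against 6.12% of the 19775 genes. CCN1 rose 4.99-fold, CCN2 2.44-fold, LATS2 1.98-fold and AMOTL2 1.62-fold, while CCN3 ended 1.12-fold lower. Rises passed in 4 of 10 members against 3.36% of all genes, and falls in 1 against 2.76%. The coactivators YAP1 and WWTR1 themselves, and CCN4, CCN5 and CCN6, did not pass. The median change of the 10 members was 0.11, against 0.01 over all genes.

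Torcetrapib against DMSO asks whether the drug does the same. CCN1 rose 2.43-fold and was the only member of 10 to pass, against 1.16% of all genes (0.592% higher and 0.566% lower). Among all 19775 genes CCN1 stood in place 7 by the size of its rise with torcetrapib and in place 25 with angiotensin II. CCN2 and LATS2 were higher on every torcetrapib array than on any DMSO array but missed the threshold, and AMOTL2 overlapped with DMSO. How many of all genes separate in this way was not counted, so non-overlap here and below is a description only. The median change of the members was -0.02, against -0.03 over all genes. The comparisons of angiotensin II and of torcetrapib with DMSO share their 3 DMSO arrays.

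**Figure D1:**
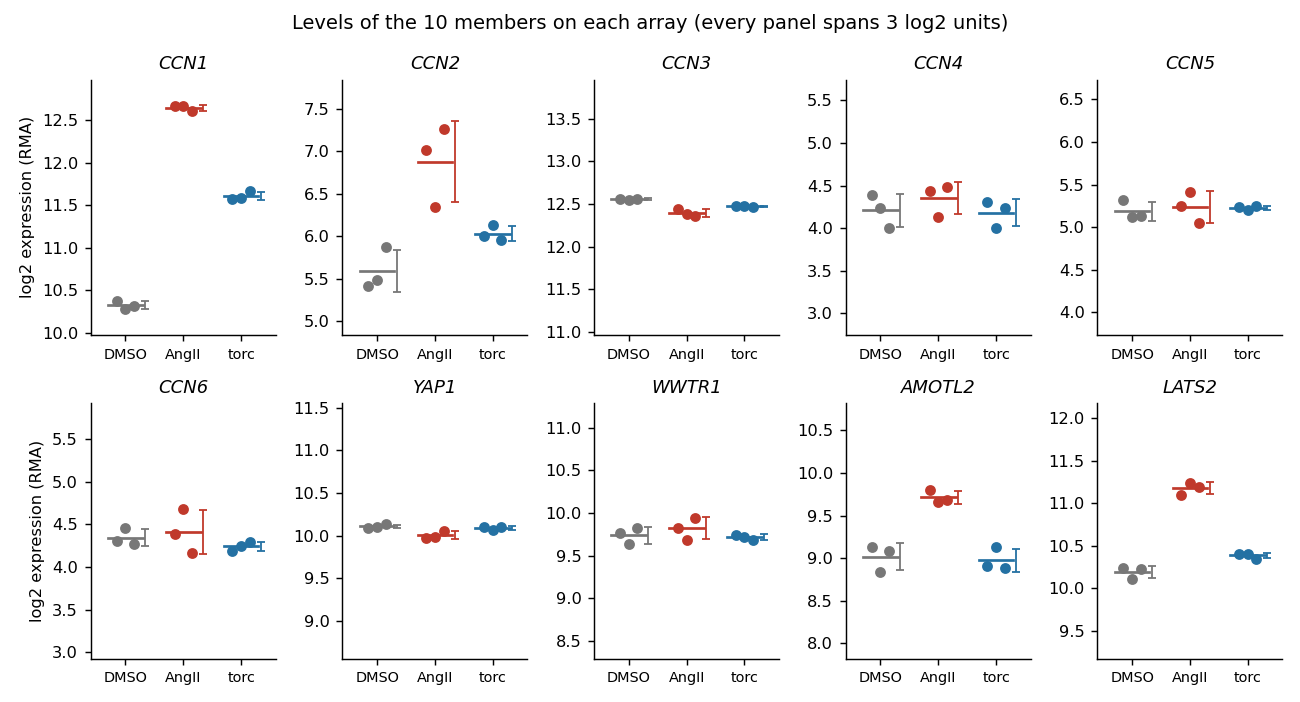
Log2 expression (RMA) of the 10 members on each of the 9 arrays, with a point per array, a bar at the group mean and an error bar of 1 SD beside it; AngII is angiotensin II and torc is torcetrapib, and every panel spans 3 log2 units. CCN1 forms 3 separate levels, LATS2 and AMOTL2 stand apart with angiotensin II, and CCN2 spreads from 6.34 to 7.26 on the angiotensin II arrays.

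CCN1, the adhesive CCN protein that many cells make soon after a stimulus, had the largest changes among the members. Its level was 10.38, 10.28 and 10.32 on the DMSO arrays, 12.67, 12.66 and 12.61 with angiotensin II and 11.57, 11.59 and 11.66 with torcetrapib. The groups formed 3 steps without overlap, angiotensin II highest and DMSO lowest. The log2 change was 2.32 ± 0.04 (SE) with angiotensin II (adjusted p = 1.85e-15) and 1.28 ± 0.04 with torcetrapib (adjusted p = 2.73e-11). Its other probe set, 210764_s_at, gave larger values, 2.71 ± 0.05 and 1.72 ± 0.05, both called in the fit of all 41091 probe sets. Set directly against angiotensin II at the same dose and time, torcetrapib left CCN1 2.05-fold lower, a log2 difference of -1.04 ± 0.04 (adjusted p = 6.68e-11). The other probe set gave -0.99 ± 0.05. Once the 5′ to 3′ index was a covariate the change with torcetrapib was 1.34 (adjusted p = 7.85e-10), so the call was kept.

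CCN2, also known as connective tissue growth factor, is the member most tied to fibrosis and to transforming growth factor beta (TGF-beta). It was below the middle gene under DMSO, at 5.41, 5.48 and 5.87, and rose to 7.01, 6.34 and 7.26 with angiotensin II. On the torcetrapib arrays it lay at 6.01, 6.13 and 5.95. No angiotensin II array overlapped with another group, but replicate 2 was much nearer to the torcetrapib arrays than replicates 1 and 3 were. The log2 change with angiotensin II was 1.29 ± 0.18 (adjusted p = 0.000231), and it was 1.55 without angiotensin II replicate 2 and 1.09 without replicate 3. With torcetrapib it was 0.44 ± 0.18, with a 95% interval from 0.05 to 0.83 and an adjusted p of 0.302, so no rise was called. The array weights of limma brought that value to 0.49 with an adjusted p of 0.0438, against 0.0438 to 1.00 over all alternatives. Against angiotensin II, CCN2 was 1.80-fold lower with torcetrapib (-0.85 ± 0.18, adjusted p = 0.00682). That call ended once the 5′ to 3′ index was a covariate, where the change was -0.95 and its SE grew to 0.32 (adjusted p = 0.281, range over the alternatives 8.81e-06 to 0.281).

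CCN3, a CCN protein that often opposes CCN2 and is made in the adrenal cortex, was the only member that fell. It lay at 12.56, 12.55 and 12.56 with DMSO, at 12.45, 12.38 and 12.36 with angiotensin II and at 12.48, 12.47 and 12.47 with torcetrapib. In this probe set, the brightest, the steps were small but the groups did not overlap, and angiotensin II was lowest. The change with angiotensin II was -0.16 ± 0.03 (adjusted p = 0.00204). Its other probe set gave -0.21 ± 0.04, which passed as well. With a variance that did not depend on intensity the call was lost (adjusted p = 0.131, against 0.00142 to 0.131 over all alternatives). With torcetrapib the change was -0.09 ± 0.03 (adjusted p = 0.199), and between the agents it was 0.08 ± 0.03 (adjusted p = 0.107), so these neighbours in the order were not told apart. In the other probe set, 204501_at, torcetrapib overlapped with DMSO, with a change of -0.06 ± 0.04 (limma adjusted p = 0.586 over all probe sets). There the agents did differ, by 0.15 ± 0.04 (limma adjusted p = 0.0415). Averaged over both probe sets, the difference between the agents was called (0.11, adjusted p = 0.0497, range 0.0497 to 0.664).

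CCN4, a WNT target, CCN5, which lacks the C-terminal domain of its relatives, and CCN6 were dim. Their DMSO means were 4.21 for CCN4, 5.19 for CCN5 and 4.34 for CCN6, so CCN4 and CCN6 fell in the dimmest quartile of genes. CCN4 ran from 4.002 to 4.485 over all 9 arrays, CCN5 from 5.05 to 5.41 and CCN6 from 4.17 to 4.68, and their groups overlapped in each comparison. With angiotensin II the intervals of the change were -0.11 to 0.40 for CCN4, -0.17 to 0.27 for CCN5 and -0.17 to 0.31 for CCN6. With torcetrapib they were -0.29 to 0.23, -0.18 to 0.26 and -0.34 to 0.14. The 4 probe sets of CCN4 and both of CCN6 all missed the threshold in each comparison. Some of these dim probe sets were listed at the same value on several arrays, as 206796_at of CCN4 was at 3.65 on all 3 angiotensin II arrays.

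**Figure D2:**
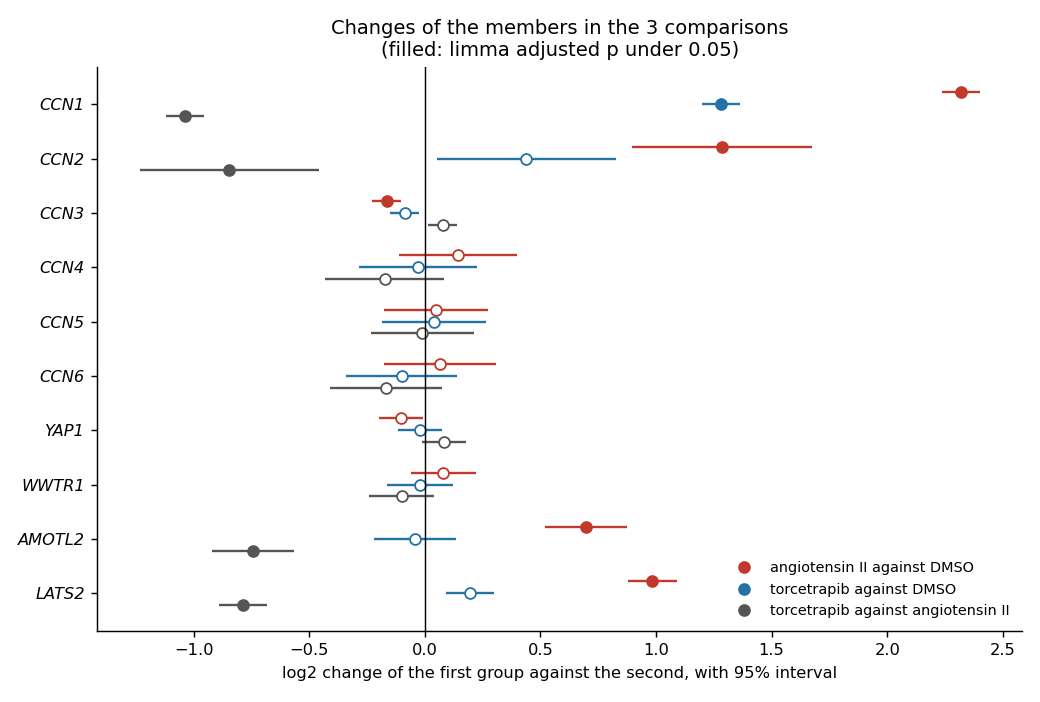
Log2 change of each member with its 95% interval, in red for angiotensin II against DMSO, in blue for torcetrapib against DMSO and in grey for torcetrapib against angiotensin II; filled points have a limma adjusted p under 0.05. The red points of CCN1, CCN2, AMOTL2 and LATS2 lie between 0.70 and 2.32, and CCN1 has the only filled blue point, at 1.28.

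YAP1 and WWTR1, the coactivators, were both bright and passed in no comparison by their brightest probe sets. YAP1 lay at 10.09, 10.10 and 10.13 with DMSO, at 9.97, 9.98 and 10.06 with angiotensin II and at 10.10, 10.06 and 10.10 with torcetrapib. The angiotensin II arrays were the lowest, just without overlap with DMSO, but the change of -0.10 ± 0.04 did not pass (adjusted p = 0.259) and its interval ran from -0.20 to -0.01. With array weights it was called (-0.12, adjusted p = 0.0269, range over the alternatives 0.0269 to 0.721), as was its higher level with torcetrapib than with angiotensin II (0.11, adjusted p = 0.0160, range 0.0160 to 0.877). Those weights were 6.15 for angiotensin II replicate 1 and 0.448 and 0.480 for replicates 2 and 3, so the angiotensin II mean then rests mostly on replicate 1. With torcetrapib the change was -0.02 and the interval ran from -0.12 to 0.08. Of the 3 probe sets of YAP1 none passed against DMSO; 224895_at was higher with torcetrapib than with angiotensin II, by 0.33 ± 0.10 (adjusted p = 0.0419 over all probe sets), and 224894_at, the brightest, was not called there, at 0.08.

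WWTR1 lay at 9.76, 9.63 and 9.82 with DMSO, at 9.83, 9.69 and 9.94 with angiotensin II and at 9.75, 9.72 and 9.69 with torcetrapib. These groups overlapped. The intervals of its change were -0.06 to 0.22 with angiotensin II and -0.16 to 0.12 with torcetrapib. Its other probe sets, 202132_at and 202134_s_at, had larger changes with angiotensin II, 0.21 ± 0.07 and 0.34 ± 0.10, with all 3 treated arrays above DMSO and adjusted p of 0.199 and 0.0970, so they missed the threshold too.

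LATS2, the kinase that restrains both coactivators, rose with angiotensin II. The DMSO arrays were at 10.23, 10.11 and 10.22, the angiotensin II arrays at 11.09, 11.23 and 11.19 and the torcetrapib arrays at 10.41, 10.40 and 10.35. The groups did not overlap, and torcetrapib stood between the others and close to DMSO. The change was 0.98 ± 0.05 with angiotensin II (adjusted p = 1.35e-09). With torcetrapib it was 0.20 ± 0.05, with an interval from 0.09 to 0.30, and missed the threshold (adjusted p = 0.0694, range over the alternatives 0.0200 to 0.278). Torcetrapib left LATS2 1.73-fold lower than angiotensin II did (-0.79 ± 0.05, adjusted p = 2.97e-08).

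The 4 probe sets of LATS2 disagreed. The second brightest, 223380_s_at, rose by 0.89 ± 0.06 with angiotensin II and had a change of 0.01 ± 0.06 with torcetrapib, so the small difference of the brightest probe set with torcetrapib was not seen there. The dimmer 223379_s_at and 230348_at did not pass with angiotensin II, with changes of 0.09 ± 0.15 and 0.26 ± 0.13. With torcetrapib 223379_s_at had the larger change, 0.42 ± 0.15 (adjusted p = 0.217), on arrays where its DMSO values spread from 6.17 to 6.88. Between the agents 223379_s_at went the other way from the brighter pair. It was higher with torcetrapib than with angiotensin II by 0.34 ± 0.15, which missed the threshold (limma adjusted p = 0.188), while 223380_s_at was at -0.88 ± 0.06. The mean of all 4 probe sets gave a rise of 0.55 with angiotensin II, still called (adjusted p = 5.39e-05), in place of 0.98, and a difference of -0.35 between the agents (adjusted p = 0.00238) in place of -0.79.

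AMOTL2, the scaffold that keeps YAP1 at cell junctions, has a single probe set, which rose with angiotensin II. It lay at 9.13, 8.84 and 9.08 with DMSO and at 9.80, 9.66 and 9.69 with angiotensin II. The torcetrapib arrays, at 8.91, 9.13 and 8.88, lay within the range of DMSO. The change with angiotensin II was 0.70 ± 0.08 (adjusted p = 3.91e-05), and that with torcetrapib was -0.04 ± 0.08, with an interval from -0.22 to 0.13. The difference between the agents itself passed, with AMOTL2 1.67-fold lower with torcetrapib (-0.74 ± 0.08, adjusted p = 2.64e-05). That call ended once the 5′ to 3′ index was a covariate, at -0.51 and an adjusted p of 0.0705, against 3.62e-08 to 0.0705 over the alternatives.

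**Figure D3:**
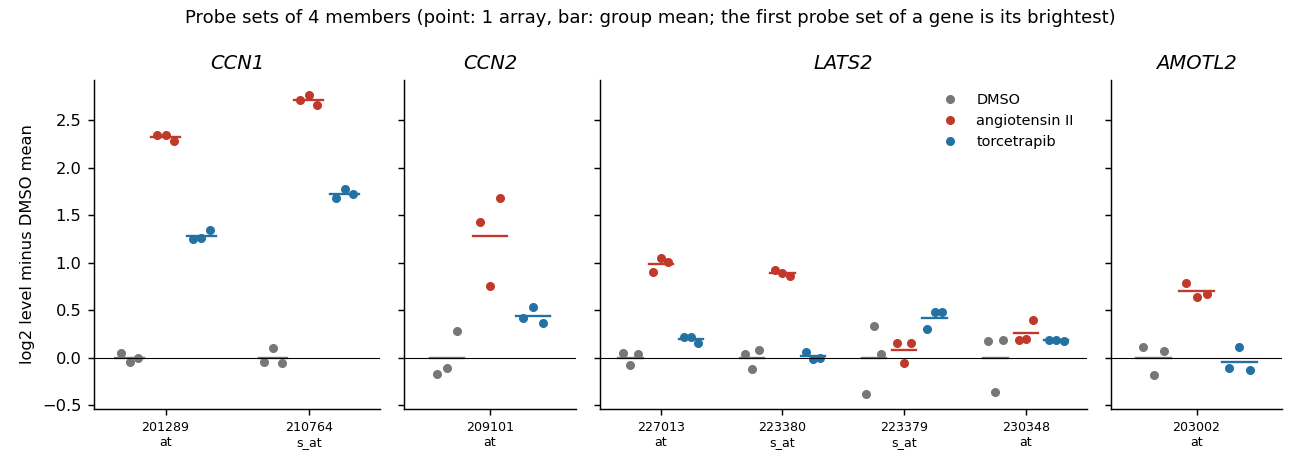
Every probe set of the 4 members that rose with angiotensin II, as the log2 level on each array minus the mean of the DMSO arrays, with a point per array and a bar at the group mean. Both CCN1 probe sets show the same 3 steps, while of the LATS2 probe sets the brighter pair rises by 0.98 and 0.89 with angiotensin II and the dimmer pair does not stand apart from DMSO. In 223379_s_at the torcetrapib arrays lie above the angiotensin II arrays.

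Across all 23 probe sets of the members, 8 passed with angiotensin II, 6 higher and 2 lower, against 3.63% of the 41091 probe sets tested (2.17% higher and 1.46% lower). They were both of CCN1, that of CCN2, the brighter pair of LATS2 and that of AMOTL2, all higher, and both of CCN3, lower. With torcetrapib the 2 that passed, against 1.11% of all probe sets (0.849% higher and 0.263% lower), were both of CCN1. Between the agents 8 passed, against 11.6% (7.22% higher and 4.37% lower): those 6 of CCN1, CCN2, AMOTL2 and LATS2 were lower with torcetrapib, and 204501_at of CCN3 and 224895_at of YAP1 were higher. The last number fell to 5 without torcetrapib replicate 1 and to 5 without torcetrapib replicate 3, and to 4 once the 5′ to 3′ index was a covariate. The share of all probe sets called in these settings was not counted.

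**Figure D4:**
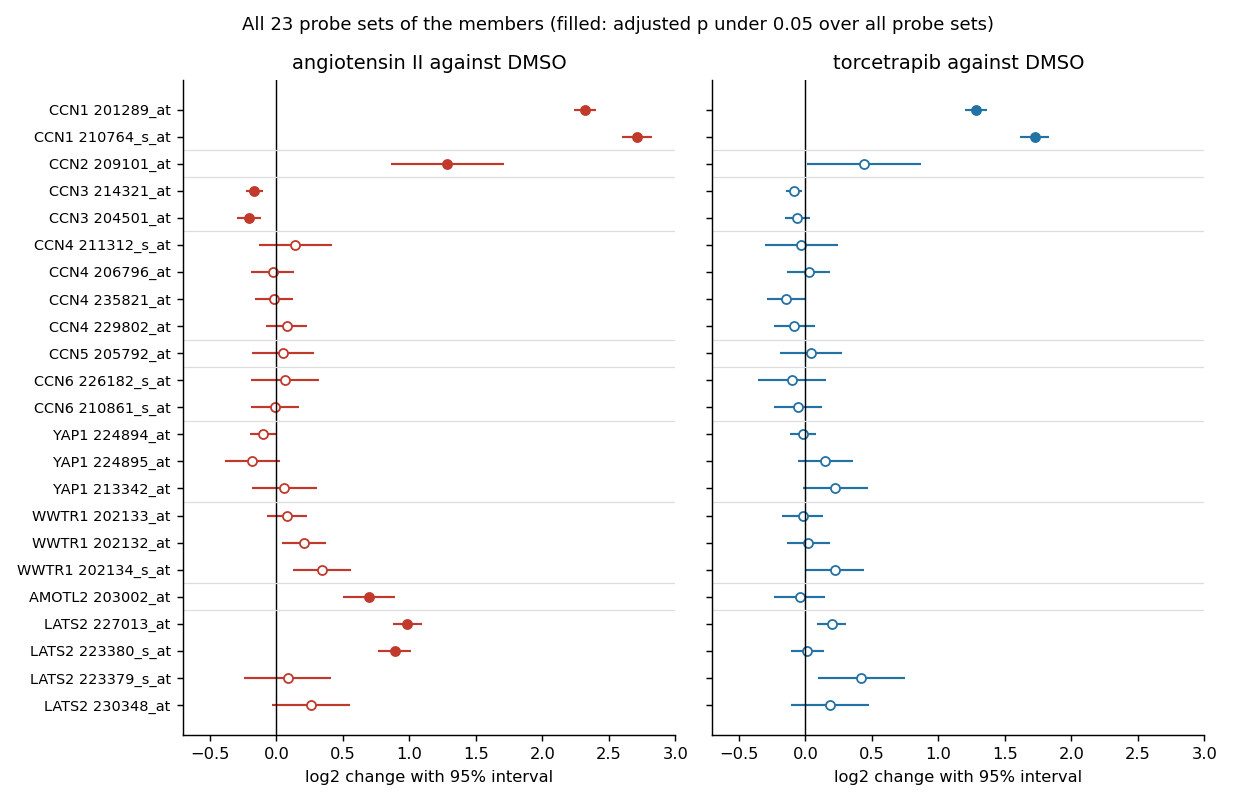
Log2 change with its 95% interval for all 23 probe sets of the members, with angiotensin II on the left and torcetrapib on the right; filled points passed at an adjusted p of 0.05 over all single-symbol probe sets. Filled points number 8 on the left and 2 on the right, and the 2 on the right are both of CCN1.

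Torcetrapib against angiotensin II sets the agents against each other at a matched dose and time; the DMSO arrays enter its estimate of the spread but not the difference. CCN1, CCN2, LATS2 and AMOTL2 were lower with torcetrapib, by 1.67-fold to 2.05-fold, and 0 of the 10 members were higher by their brightest probe set (limma, 1 at an unadjusted p under 0.05, CCN3). The 4 lower members stand against 6.68% of all genes lower in this comparison, 4.61% higher and 11.3% called in either direction. Once the 5′ to 3′ index was a covariate 2 stayed called, CCN1 (-0.96, adjusted p = 2.06e-07) and LATS2 (-0.68, adjusted p = 0.000119). The index separates all torcetrapib arrays from all angiotensin II arrays, and its part in the 2 lost calls cannot be told apart from the agents.

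The rest of the pathway was described by 6 lists of 79 genes, 75 of them measured. With angiotensin II 12 of the 75 rose and 0 fell (22 at an unadjusted p under 0.05), against 3.36% of all genes that rose. That number was 7 without probe sets of the _x_at and _s_at types and 20 with array weights. The 7 are over fewer genes, as IGFBP3, SRF, CNN2 and VCL have only probe sets of those types. With torcetrapib 2 rose and 0 fell, against 0.592% that rose (20 at an unadjusted p under 0.05). That small number moved with single arrays, to 9 without DMSO replicate 2, of which 7 were lower, and to 1 without DMSO replicate 3, torcetrapib replicate 1 or torcetrapib replicate 2. Between the agents 18 were lower with torcetrapib and 1 was higher, against 6.68% and 4.61% of all genes. These 19 became 11 without torcetrapib replicate 3. The same shares of all genes stand behind the main counts of each list below. Under the alternatives the share of all genes called was not counted, so those counts have no such share beside them.

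Among 16 measured YAP and TEAD target genes beyond the members 3 rose with angiotensin II, and 6 were called without angiotensin II replicate 2, 5 with quantile normalisation and 5 with array weights. GADD45A, a growth arrest and stress gene that other pathways drive as well, rose by 1.89 ± 0.05, from 10.10 to 11.99 (adjusted p = 9.52e-13). F3, tissue factor, the cell-surface starter of blood clotting, rose by 1.67 ± 0.10, from 6.87 to 8.54, and IGFBP3, a carrier of insulin-like growth factors, by 0.72 ± 0.08. The other 13 did not pass: ANKRD1, a widely used read-out of YAP, was dim at 3.50 with DMSO and had a change of 0.02, and AXL, a receptor tyrosine kinase, had -0.08. The median of the list was 0.07. With torcetrapib GADD45A rose by 0.60 ± 0.05 (adjusted p = 1.08e-05) and was the only one of the list called, whose median was 0.05. The list had 3 called without DMSO replicate 2, where GADD45A was higher and those added were lower. It had 2 without angiotensin II replicate 2, 3 with quantile normalisation and 4 with array weights. The direction of those added in these other settings is not given here. F3 and IGFBP3 had changes of 0.32 (adjusted p = 0.173) and 0.34 (adjusted p = 0.0539). Torcetrapib left 4 of the 16 lower than angiotensin II did, among them F3 by 1.34 ± 0.10 and GADD45A by 1.29 ± 0.05 on the log2 scale. The calls of F3 and GADD45A were kept in each of 20 alternatives. IGFBP3, at -0.38, lost its call in 2 of 19 alternatives. ASAP1, at -0.22, lost it in 10 of 20 and turned in sign in 2 more. The 4 became 2 with the index, 2 by the mean of probe sets and 9 with array weights.

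Of 18 Hippo kinases and upstream regulators 2 rose with angiotensin II, against 3.36% of all genes, and 4 were called with array weights. FRMD6, a scaffold protein that feeds into the Hippo kinases, rose by 0.78 ± 0.06 (adjusted p = 5.01e-07). MOB1B, the adaptor that activates LATS kinases, rose by 0.31 ± 0.07, and leaving out angiotensin II replicate 1 or 3 ended that call (adjusted p = 0.0690 or 0.0552, over all alternatives 0.000143 to 0.0690). The kinase LATS1, sister of LATS2, had a change of -0.08. With torcetrapib 0 of 18 passed (limma, 4 at an unadjusted p under 0.05), with FRMD6 at 0.21 ± 0.06. Called were 2 without DMSO replicate 2, both lower, and 3 with array weights. The medians were 0.05 with angiotensin II and -0.06 with torcetrapib. Between the agents 5 of 18 were lower with torcetrapib, against 6.68% of all genes. FRMD6, at -0.58 ± 0.06, was called in each of 20 alternatives. The count was 2 without torcetrapib replicate 3, 3 without angiotensin II replicate 3, 2 with the index and 8 with array weights; the kinase TAOK2 lost its call in 9 of 19 alternatives. Of 7 TEAD factors and VGLL partners, the DNA-binding partners of YAP1 and their competitors, 0 passed with either agent (limma, 0 and 1 at an unadjusted p under 0.05). Without DMSO replicate 2, 1 was called lower with torcetrapib. The medians were 0.10 and -0.09. TEAD3 was the only one called lower with torcetrapib than with angiotensin II (-0.40 ± 0.10), 2 of the list were called without DMSO replicate 2, and the TEAD3 call ended when angiotensin II replicate 3 or torcetrapib replicate 1 or 3 was left out (adjusted p = 0.0543, 0.0844 and 0.0623) and with the index in the model (0.751, the highest of a range from 0.000785).

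Receptors of CCN proteins are integrins, LDL-receptor relatives and proteoglycans. Of 10 of them 1 rose with angiotensin II, the heparan sulfate proteoglycan SDC4, by 0.41 ± 0.09 (adjusted p = 0.00748), and 0 passed with torcetrapib (limma, 0 at an unadjusted p under 0.05). SDC4 was also lower with torcetrapib than with angiotensin II, by 0.50 ± 0.09 on the log2 scale, which ended with the index in the model (-0.30, adjusted p = 0.546, range 3.97e-06 to 0.546). Called between the agents was 1 of the 10, 2 without angiotensin II replicate 3 and 4 with array weights. The medians of the list were 0.01 and -0.03.

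Actin and SRF genes were listed because SRF also drives CCN1 and CCN2. Of 15 measured 5 rose with angiotensin II: SRF itself by 0.86 ± 0.09 (adjusted p = 6.82e-06), the calponin CNN2 by 0.39 ± 0.07, the tropomyosin TPM4 by 0.36 ± 0.08, the focal adhesion protein VCL by 0.34 ± 0.04 and ACTB by 0.09 ± 0.02. Averaged over its probe sets, VCL lost its call (0.15, adjusted p = 0.290, range 1.02e-05 to 0.290). Leaving out DMSO replicate 3, or replicate 1 or 3 of angiotensin II, ended that of TPM4 (adjusted p = 0.0969, 0.0900 and 0.0803, range 5.26e-05 to 0.0969). With torcetrapib TPM4 was the 1 that rose, by 0.50 ± 0.08 (adjusted p = 0.00823), and its call ended without DMSO replicate 3 or torcetrapib replicate 1 or 2 (adjusted p = 0.0632, 0.0508 and 0.0644, range 0.000356 to 0.226). SRF had a change of 0.03 ± 0.09 with torcetrapib and was 1.78-fold lower than with angiotensin II (-0.83 ± 0.09, adjusted p = 1.32e-05). The 5 called with angiotensin II were 3 without angiotensin II replicate 1, 1 without probe sets of the _x_at and _s_at types and 8 with array weights. SRF, CNN2 and VCL have only probe sets of those types and drop out without them, while TPM4 kept its call (0.41, adjusted p = 0.000624). Between the agents 5 of 15 were lower with torcetrapib, against 2 with the index and 8 with array weights. The medians were 0.07 with angiotensin II and -0.05 with torcetrapib.

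TGF-beta, the best known inducer of CCN2, was represented by 9 measured ligands, receptors and read-outs. With angiotensin II 1 rose, SKIL, a repressor of SMAD proteins, by 0.31 ± 0.06, and averaged over its probe sets it had 0.15 with no call (adjusted p = 0.404, range 0.00161 to 0.404). Without DMSO replicate 1, 2 were called. With torcetrapib 0 passed (limma, 4 at an unadjusted p under 0.05), and 2 were called without DMSO replicate 2, both lower. The medians were -0.04 and -0.10. SMAD7, a feedback target of TGF-beta, had changes of -0.17 and -0.20. Between the agents SKIL and TGFB1 were lower and SMAD4 higher with torcetrapib. These 3 became 1 when any angiotensin II replicate, or torcetrapib replicate 1 or 3, was left out, and 0 with the index. TGFB1 lost its call in 10 of 20 alternatives; SMAD4 lost it in 12 and turned in sign in 1 more.

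**Figure D5:**
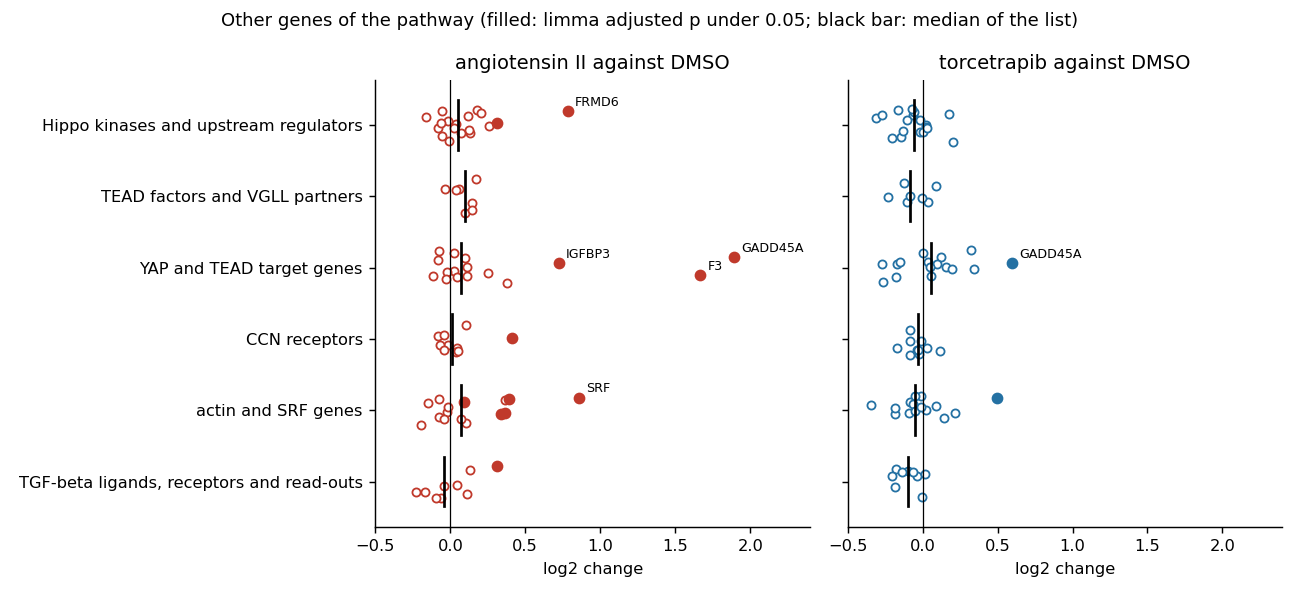
Log2 changes of the 75 measured genes of the 6 pathway lists, with angiotensin II on the left and torcetrapib on the right; each point is a gene, filled points have a limma adjusted p under 0.05, and a black bar marks the median of a list. The bars lie between -0.04 and 0.10 on the left and between -0.10 and 0.05 on the right, and GADD45A and F3 lie farthest to the right with angiotensin II.

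Likeness to CCN1 over the 9 arrays was measured by the root mean square difference after each gene's DMSO mean was subtracted. The nuclear receptor NR4A1 came first, with a difference of 0.25 on the log2 scale (r = 0.996), followed by C11orf96 (0.30), the AP-1 subunit FOS (0.33), TIPARP, which adds ADP-ribose to proteins (0.33), and the transcription factor MITF (0.37). FOS changed by 2.82 with angiotensin II and by 1.04 with torcetrapib. The values of NR4A1 and C11orf96 rest on probe sets of the _x_at and _s_at types and lost their calls without them. For CCN2 the nearest were the keratin KRT23, with a difference of 0.12 (r = 0.989), the RNA-binding protein RBM24 (0.17), the ephrin EFNB2 (0.18), the cell cycle regulator RGCC (0.19) and MXD1, a partner of MAX (0.19). None of these 5 was called with torcetrapib, where their changes ran from 0.25 to 0.42. CCN2 itself was not called there, at 0.44, and the 5 were picked for likeness over these same arrays. Their small changes thus follow from the choice. MXD1 (adjusted p = 0.0586) gained a call with torcetrapib in 6 of 20 alternatives, and KRT23 did with array weights (adjusted p = 0.0375). RGCC, by an _s_at probe set, lost its call with angiotensin II without that type. KRT23, also by an _s_at probe set, drops out without the _x_at and _s_at types. The members were chosen first, so these lists describe likeness in these arrays only.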

How the data were processed

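The authors deposited log2 values for each probe set, which the submitters' processing notes ascribe to RMA. Which program, release and chip description file they used is not given in the sources used here. No further normalisation was applied. Of 54675 probe sets, 62 controls, 1801 with several symbols and 11721 with none were not tested, and for 41037 of the other 41091 the symbol was found in the current gene table. For each of 19775 genes the probe set brightest on average over the 9 arrays was taken. The title numbers of a group follow on from each other, and the labels do not say what these numbers stand for. If they follow the order of processing, that order cannot be told apart from treatment.

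One linear model with 3 group means (6 residual degrees of freedom) was fitted with limma 3.58.1 in R 4.3.3, with an intensity trend in the variance, and again over all single-symbol probe sets. Two-sided p-values were adjusted over all genes or all probe sets (Benjamini-Hochberg), with a threshold of 0.05. A change ± carries its SE and intervals are 95% and unadjusted. The script was tested on simulated data with known changes. Alternatives were no trend, robust moderation, dim quartile left out, arrays centred, quantile normalisation, other probe set rules, array weights, 2 groups only, a threshold of 0.01, the index as a covariate and each array left out. The array weights were 6.15 for angiotensin II replicate 1 and 0.448 and 0.480 for replicates 2 and 3, so every count with array weights leans on replicate 1. Without _x_at and _s_at probe sets 17098 genes remained.

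Members and lists were chosen with earlier results of these data known. Named were all members, up to 4 called genes per list and comparison with the largest change and any at 2-fold or more, and the 5 genes most like each member called at 2-fold or more against DMSO; ACTB, LATS1, ANKRD1, AXL and SMAD7 were added after their values were seen. Listed genes with no single-symbol probe set here were not analysed. The number of arrays limits the precision.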

Additional observations from a re-analysis of the deposited data

How the results depend on the processing

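Of the 10 member changes that were called, all kept their direction under 20 alternatives, and 197 of 200 values kept their call; the exceptions were CCN3 with angiotensin II without the intensity trend, and CCN2 and AMOTL2 between the agents with the index as a covariate. The number of members called with torcetrapib was 2 with quantile normalisation and 3 with array weights. Between the agents it was 2 with the index, and no array left out changed a member count. How many of all genes were called under each alternative was not counted. A shift of the counts in this section can therefore not be set against one over all genes. Member probe sets called between the agents numbered 5 at a threshold of 0.01, 4 with the index and 5 to 8 without single arrays. Pathway genes called with angiotensin II were 7 without _x_at and _s_at probe sets, where IGFBP3, SRF, CNN2 and VCL drop out, and 20 with array weights. With torcetrapib they were 1 without the trend, 4 without the dim quartile, 8 with quantile normalisation, 4 by the mean of probe sets, 10 with array weights, 1 with the index and 1 to 9 without single arrays. Between the agents they were 12 without the trend, 12 without _x_at and _s_at probe sets, 12 at a threshold of 0.01, 35 with array weights, 6 with the index and 11 to 20 without single arrays. IGFBP3, SRF, CNN2, VCL, TAOK2 and TEAD3, all called between the agents, drop out without _x_at and _s_at probe sets. Causes were not tested, apart from the stricter threshold.

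Uncalled member changes turned in sign 23 times, none of them called. With torcetrapib these were CCN4 (0.004239 quantile normalised, 0.02391 without _x_at and _s_at probe sets, 0.06162 with the index, and -0.1314 to 0.0597 without single arrays), CCN5 (-0.007441 with array weights), YAP1 (0.1185 by the mean of probe sets), WWTR1 (0.07448 by that mean, 0.05009 with the index, and -0.07432 to 0.02097 without single arrays) and AMOTL2 (0.1134 with the index, and -0.1343 to 0.01367). With angiotensin II they were CCN4 (-0.02871 without those types), CCN5 (-0.007659 with the index, and -0.03876 to 0.1449) and CCN6 (-0.06645 to 0.188). Between the agents they were CCN4 (0.05263 without those types), CCN5 (0.06073 quantile normalised, 0.1754 with the index, and -0.1053 to 0.07841) and WWTR1 (0.001456 with the index). Pathway genes called between the agents that turned, and lost their call, were NF2 (0.2267), ASAP1 (0.102) and SKIL (0.02321) by the mean of probe sets, and ASAP1 (0.02645) and SMAD4 (-0.0149) with the index.

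No paired analysis was possible because the labels give no replicate numbers shared between groups. Dim probe sets, as of CCN4 and CCN6, limit what was detectable.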
